A study of Mus musculus with 8 samples.

Results

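Collagen, laminin and integrin genes were followed in the cerebral cortex of mouse embryos with and without Taf8. Members were chosen by name and by total count: they are the protein-coding genes whose symbol names a collagen alpha chain, a laminin chain or begins with Itga or Itgb, and whose raw counts summed to at least 80 over all 8 libraries. Of 27179 genes in the count table, 86 matched by name and 79 met the minimum. They comprise 42 collagen chain genes, 11 laminin chain genes, 22 integrin subunit genes and 4 genes, Itgb1bp1, Itgb1bp2, Itgb3bp and Itgbl1, that share the prefix but encode no integrin subunit. The 7 genes under the minimum were Itgb7 with 78 counts in all, Itgax with 75, Col6a6 with 34, Col10a1 with 12, Itgb6 with 8, and Itgad and Itgb2l with 2 each. The members nearest above it were Col13a1 with 129 counts and Col17a1 with 178.

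The study sequenced polyadenylated RNA, without strand information, from 8 embryonic cortices, each from its own embryo. Taf8 codes for a TBP-associated factor, a component of the TFIID complex that helps RNA polymerase II start at promoters. The 4 intact embryos carried Taf8 +/+ and the 4 deleted embryos carried Taf8 -/lox, so the groups differ by a null allele as well as by the loxP-flanked one. The sources used here name neither the recombinase nor the embryonic stage, and age, litter or day cannot be told apart from genotype, since the animal numbers of the groups do not interleave. Replicates 1 to 4 are animals 408.4, 408.5, 408.6 and 409.2 among the intact and 456.1, 472.1, 477.1 and 486.1 among the deleted embryos. Taf8 itself had 1491, 1383, 1222 and 1403 counts in the intact and 30, 14, 29 and 14 counts in the deleted libraries. Its log2 fold change was -6.02 ± 0.15 (SE), with an edgeR adjusted p of 2.42e-10.

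Collagens are trimers of alpha chains. Fibrillar collagens build the banded fibres of connective tissue, whereas type IV collagen forms the sheet-like network of basement membranes, into which laminin trimers of an alpha, a beta and a gamma chain are woven. Integrins are heterodimers of an alpha and a beta subunit that span the cell membrane and attach cells to these proteins. In the developing cortex, the meninges and the endfeet of radial glia meet at the pial basement membrane, another basement membrane sheathes the blood vessels, and radial glia and migrating neurons use integrins to hold to laminin. Meningeal fibroblasts are a rich source of the fibrillar collagen types I and III and of type VI.

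Values are CPM, counts scaled to a common library size, after TMM adjustment for composition differences between libraries, and lists of values run from replicate 1 to 4. Total counts ranged from 39590959 to 44788200 per library, and 3 counts, taken as the detection floor, correspond to 0.067 to 0.0758 CPM. That floor covers counting error only. Differences were tested with edgeR's quasi-likelihood test on all 16074 genes that passed its filter on low counts, and every p-value below is from that test with Benjamini-Hochberg adjustment over all genes tested. A gene was called at an adjusted p under 0.05. Changes are log2 fold changes, deleted minus intact, with their standard errors (±), and rises and falls are on that log2 scale. The p-values weigh the difference between the groups against the spread between these embryos, which the test moderates across genes. All 79 members passed the filter, but Col13a1 passed it only through the deleted group, having at least 10 counts in 0 of 4 intact and 4 of 4 deleted libraries. Counts of members below include it, and its difference is given as values with no test: without it, 31 of 78 members were called higher, 18 rather than 19 met the criteria for a consistent rise defined below, and the median log2 fold change was 0.15. Reads cannot be told apart where exons of genes on opposite strands overlap in GENCODE M21, as they do for Col4a1, Col4a2, Col4a3, Col5a1, Col6a4, Col9a3, Col15a1, Col22a1, Itga4, Itga7, Itga8, Itgav, Itgb4, Itgb1bp1, Itgb3bp, Lama2, Lama3 and Lamc3. Exons of Col3a1, Col7a1, Col20a1, Itga1, Itga10 and Itgam overlap another gene on the same strand.

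Among the 79 members, 32 were higher and 12 were lower in the deleted cortex, and 35 were not called. Among all genes tested, 63.5% were called, 30.6% higher and 32.9% lower. The members were called in 55.7% of cases, 40.5% higher and 15.2% lower. The groups did not overlap in 22 members that were higher (27.8%) and 7 that were lower (8.86%), beside 57.7% of all genes, 27.6% higher and 30.1% lower. Their median log2 fold change was 0.15, beside 6.31e-05 over all genes tested. Collagen genes divided into 17 higher, 8 lower and 17 not called, with a median of 0.28. Without Col13a1, 16 collagen genes were called higher and the median was 0.26. Laminin genes divided into 4 higher and 7 not called, with a median of 0.077. Integrin subunit genes divided into 9 higher, 3 lower and 10 not called, with a median of 0.11.

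Deleted replicates 2 and 3 carried the most RNA of meningeal markers, and several collagen genes were highest in those libraries. A change was counted as consistent where the gene was called both with all 8 libraries and without deleted replicates 2 and 3, in the same direction, and where the values of the groups did not overlap. Deleted replicate 1, whose summed meningeal markers were also above every intact library, stays in both fits. That left 19 members higher and 7 lower, or 24.1% and 8.86% of the members, beside 23.5% and 27% of all genes tested, 50.6% in all. Without deleted replicates 2 and 3, 20 members were higher and 9 lower, and 25.8% and 28.5% of all genes were called. The calls lost there were 13 of the 32 higher and 4 of the 12 lower ones, and 2 members, Col5a2 (lower) and Itgae (higher), were called there alone. Without intact replicate 1, 21 members were called higher. Each called member outside the consistent ones, except Col11a1, also lost its call when at least 1 single library was left out, which for Lama4 was intact replicate 1.

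**Figure D1:**
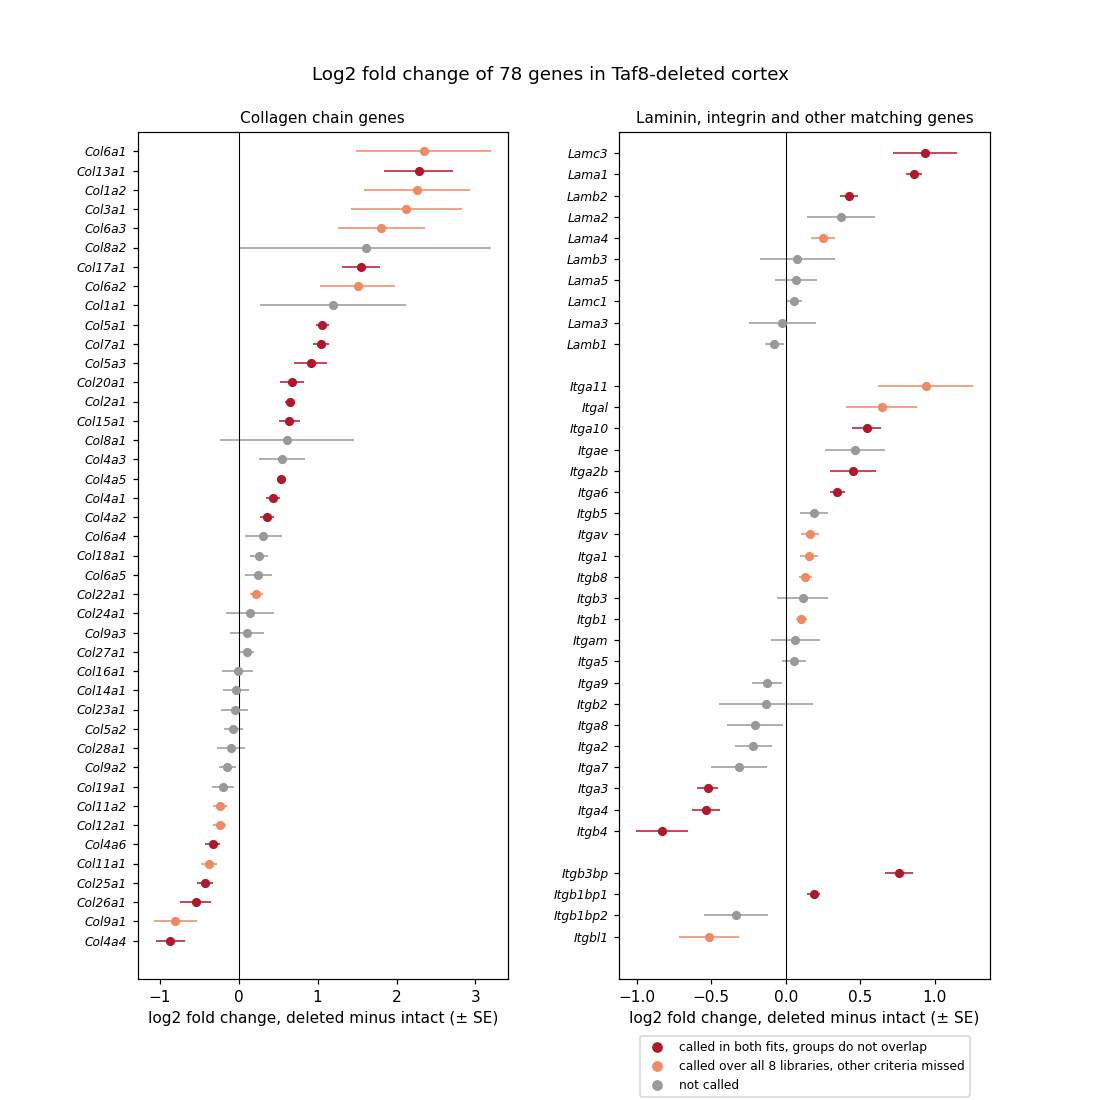
Log2 fold change, deleted minus intact, of 78 of the 79 members, with standard errors as bars; collagen chain genes are on the left, and laminin, integrin and other matching genes are on the right. Dark red points meet all criteria for a consistent change (19 higher, with Col13a1 among them, and 7 lower). Orange points were called over all 8 libraries but missed another criterion, and grey points were not called. The orange points at the upper left, from Col6a1 at 2.35 to Col6a2 at 1.51, have the long bars of genes that differ widely between deleted libraries. Col13a1 passed the filter on low counts only through the deleted group, so its point is a description and not a test.

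Promoter sequences of 6 members are shown so that genes that were higher in every deleted library (Col5a1, Col7a1, Col13a1), a gene that was high in some deleted libraries (Col3a1) and genes that fell (Col4a6, Itga4) can be read side by side. Each is the 250 bases before the RefSeq transcription start on build GRCm38.p6, written 5′ to 3′ on the gene's own strand. Capitals mark matches, on either strand, to TATAAA (the letters of a TATA box), to CCAAT or to GGGCGG (a GC box).
Col5a1 (chr2:27886175-27886424, plus strand): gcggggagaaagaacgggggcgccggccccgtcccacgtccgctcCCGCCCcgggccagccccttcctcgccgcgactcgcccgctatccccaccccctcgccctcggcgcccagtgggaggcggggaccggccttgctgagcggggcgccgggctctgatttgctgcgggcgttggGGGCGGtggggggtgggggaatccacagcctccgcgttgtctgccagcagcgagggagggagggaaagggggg
Col7a1 (chr9:108953336-108953585, plus strand): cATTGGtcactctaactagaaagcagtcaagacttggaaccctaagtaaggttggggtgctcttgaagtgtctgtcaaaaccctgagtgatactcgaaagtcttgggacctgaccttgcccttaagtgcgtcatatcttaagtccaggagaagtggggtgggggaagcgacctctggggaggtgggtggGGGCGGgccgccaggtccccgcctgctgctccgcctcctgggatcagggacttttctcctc
Col13a1 (chr10:61979109-61979358, minus strand): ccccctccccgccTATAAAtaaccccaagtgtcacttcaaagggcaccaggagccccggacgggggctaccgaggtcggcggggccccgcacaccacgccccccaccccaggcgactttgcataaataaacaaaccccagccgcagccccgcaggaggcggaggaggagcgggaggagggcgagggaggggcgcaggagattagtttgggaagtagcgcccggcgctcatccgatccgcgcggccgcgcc
Col3a1 (chr1:45311288-45311537, plus strand): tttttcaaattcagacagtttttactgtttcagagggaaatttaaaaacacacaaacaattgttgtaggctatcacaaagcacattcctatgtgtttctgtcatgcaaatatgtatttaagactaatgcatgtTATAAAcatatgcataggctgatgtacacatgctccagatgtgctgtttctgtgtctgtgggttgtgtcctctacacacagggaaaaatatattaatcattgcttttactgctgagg
Col4a6 (chrX:141474077-141474326, minus strand): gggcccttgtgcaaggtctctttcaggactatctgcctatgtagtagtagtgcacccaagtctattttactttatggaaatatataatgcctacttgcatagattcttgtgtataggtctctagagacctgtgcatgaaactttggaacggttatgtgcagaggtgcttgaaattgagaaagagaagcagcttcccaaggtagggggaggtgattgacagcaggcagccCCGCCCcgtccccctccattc
Itga4 (chr2:79255176-79255425, plus strand): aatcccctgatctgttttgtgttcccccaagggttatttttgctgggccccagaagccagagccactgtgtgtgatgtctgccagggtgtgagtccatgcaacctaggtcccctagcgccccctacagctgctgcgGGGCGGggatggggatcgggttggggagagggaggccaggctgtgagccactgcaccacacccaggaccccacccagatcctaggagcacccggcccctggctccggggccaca
The windows shown for Col5a1, Col7a1, Col4a6 and Itga4 hold GGGCGG, in either direction, and no TATAAA. The letters TATAAA begin 237 bases before the start in Col13a1 and 117 bases before it in Col3a1. RefSeq windows were matched by symbol for 56 of the 79 members. A match to TATAAA was present in 4 of the 56 (7.14%), to CCAAT in 17 (30.4%) and to GGGCGG in 29 (51.8%), where the shares over 27025 genes with windows of the same length were 14.3%, 37.5% and 35.4%. Matches of 2 motifs may share letters at their ends, a match is a description of letters only, and no factor's binding was measured.

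Chains of the fibrillar collagens I and III and of the beaded-filament collagen VI differed widely between libraries, and their differences were not shared by all deleted embryos. Col1a2, which encodes the alpha 2 chain of type I collagen, measured 3.56, 2.99, 2.87 and 7.02 CPM in the intact and 13.8, 25.4, 34.8 and 4.84 CPM in the deleted libraries. Its values were high in deleted replicates 1, 2 and 3, while deleted replicate 4 lay below intact replicate 4, so the groups overlapped. The log2 fold change was 2.26 ± 0.67 (SE), with an adjusted p of 0.0247, and without deleted replicates 2 and 3 it was 1.19 with an adjusted p of 0.141.

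Col3a1, the sole chain of type III collagen, measured 6.97, 5.99, 6.30 and 12.2 CPM in the intact and 17.2, 49.6, 62.2 and 8.25 CPM in the deleted libraries. Deleted replicates 2 and 3 stood apart from the other 6 libraries, and deleted replicate 4 again lay below intact replicate 4. The log2 fold change of 2.13 ± 0.71 (adjusted p = 0.0378) fell to 0.70 (adjusted p = 0.228) without those libraries. Col1a1, which encodes the alpha 1 chain of type I collagen, measured 11.1, 9.64, 0.973 and 12.4 CPM in the intact and 21.0, 24.1, 31.3 and 1.67 CPM in the deleted libraries and was not called (log2 fold change 1.20 ± 0.92, adjusted p = 0.297). Intact replicate 3 and deleted replicate 4 were far below the other libraries for Col1a1 but not for Col1a2. Per kilobase of gene length, the ratio of Col1a1 to Col1a2 was accordingly 3.40, 3.52, 0.370 and 1.93 in the intact and 1.66, 1.04, 0.980 and 0.377 in the deleted libraries.

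The type VI chains, which assemble into beaded filaments around cells, followed the same library order. Col6a1 measured 0.418, 0.424, 0.341 and 0.688 CPM in the intact and 0.723, 3.47, 4.97 and 0.374 CPM in the deleted libraries, with a log2 fold change of 2.35 ± 0.86 (adjusted p = 0.0461). Without deleted replicates 2 and 3 the log2 fold change of Col6a1 was 0.24, and its adjusted p was 0.612. Col6a3 measured 1.26, 1.06, 1.61 and 1.90 CPM in the intact and 3.29, 7.03, 8.56 and 1.47 CPM in the deleted libraries and changed by 1.81 ± 0.55 (adjusted p = 0.0228). Col6a2 measured 1.51, 1.58, 1.39 and 2.02 CPM in the intact and 2.45, 5.33, 8.65 and 2.02 CPM in the deleted libraries and changed by 1.51 ± 0.48 (adjusted p = 0.0257). All 3 were highest in deleted replicates 2 and 3, and deleted replicate 4 lay within the intact range for Col6a1 and Col6a3 and just above it for Col6a2. Neither Col6a3 (0.71, adjusted p = 0.102) nor Col6a2 (0.46, adjusted p = 0.0707) was called without deleted replicates 2 and 3. Col6a4 and Col6a5, the other type VI chains that met the minimum, were not called, with log2 fold changes of 0.31 ± 0.24 and 0.25 ± 0.17. The calls of Col1a2, Col3a1, Col6a1, Col6a2 and Col6a3 were lost on leaving out any 1 of intact replicates 1, 2 and 3 or deleted replicate 2.

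Meningeal markers moved with these collagens. The summed level of 12 meningeal marker genes was 17.5, 17.6, 16.5 and 21.0 CPM in the intact and 36.3, 47.3, 44.1 and 20.8 CPM in the deleted libraries, so that deleted replicates 1, 2 and 3 were above every intact library, 2 and 3 the most, and deleted replicate 4 lay within the intact range. Crabp2 made up 14.2 of the 20.8 CPM of deleted replicate 4. Without Crabp2 the sum there was 6.66 CPM, below the 8.51 to 12.02 CPM of the intact libraries, and by mean log2 CPM over the list deleted replicate 4 (-0.59) was also below every intact library (-0.47 to 0.24). Of the 10 markers that could be tested, 5 were higher, among them Crabp2 (log2 fold change 0.88 ± 0.13), Foxc1 (0.74 ± 0.17) and Lum (3.55 ± 1.15), and 0 were lower. Among all genes tested, 30.6% were higher and 32.9% lower. Slc22a6, an organic anion transporter, had 0 counts in intact replicates 1, 2 and 3 and in deleted replicate 4, and 41 and 42 counts in deleted replicates 2 and 3. In bulk tissue, a change in the number of cells of a type and a change in their RNA per cell cannot be told apart. The part of meningeal tissue in each fold change was not tested.

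The same library order was counted over all members. A gene was said to follow the meningeal order where deleted replicate 4 was lowest and deleted replicates 2 and 3 were highest among the deleted libraries, and intact replicate 4 was highest among the intact ones. It was followed by 14 of 79 members (17.7%) and by 4.27% of all genes tested. Of the 10 meningeal markers tested, only 2 followed it themselves, so the name refers to the summed markers and not to each marker. The 8 called higher, a combination found in 1.73% of all genes, were Col1a2, Col3a1, Col6a1, Col6a2, Col6a3, Col4a1, Col4a2 and Lamc3, the 3 called lower were Col4a6, Col26a1 and Itgb4, and the 3 not called were Col1a1, Itga5 and Itga9.

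**Figure D2:**
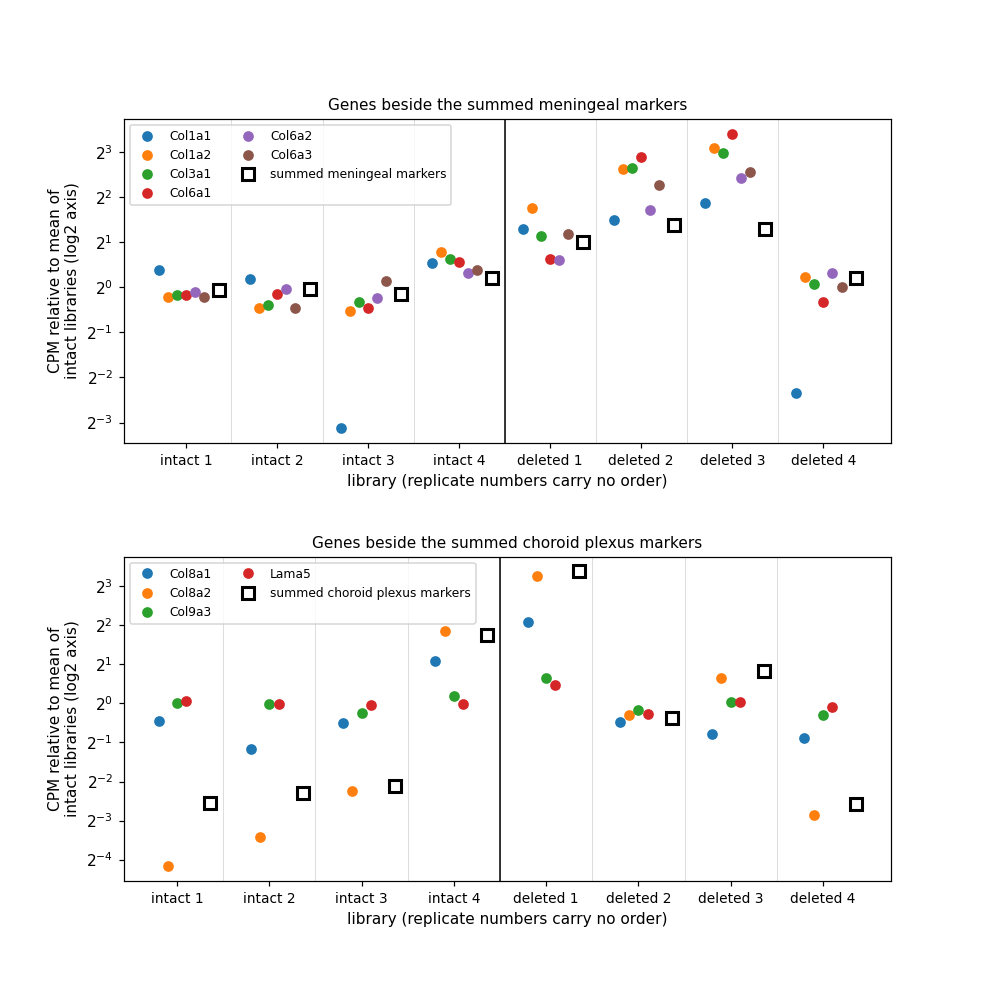
CPM of each gene relative to its mean over the intact libraries, on a log2 axis, for the 8 libraries; the upper panel sets collagen genes beside the summed meningeal markers and the lower panel sets Col8a1, Col8a2, Col9a3 and Lama5 beside the summed choroid plexus markers. In the upper panel deleted replicates 2 and 3 are the highest points of Col1a2 and Col3a1 and of the markers and deleted replicate 4 is near the intact libraries, and in the lower panel Col8a1, Col8a2 and the markers are highest of their groups in intact replicate 4 and deleted replicate 1.

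With the mean log2 level of the meningeal markers as a covariate in the same edgeR fit, 23 members were called higher and 11 lower, beside 25.6% and 28.6% of all genes. The median log2 fold change of the members was then 0.058. Fold changes of Col1a2, Col3a1, Col6a1, Col6a2 and Col6a3 shrank to 0.62, 0.39, 0.016, 0.48 and 0.36, and with adjusted p from 0.0816 (Col1a2) to 0.987 (Col6a1) they were not called. Of the 26 consistent members, 18 of the 19 higher and 6 of the 7 lower were also called with the covariate. The exceptions were Itga2b (adjusted p = 0.224) and Col25a1 (adjusted p = 0.0526). The 18 include Col13a1, for which the fit is a description and not a test. Its fitted log2 fold change was 2.28 without and 1.36 with the covariate. Since the members were picked from the same 8 libraries, calls repeated with the covariate are no independent support. The covariate differs between the groups, so that it shares part of its variation with genotype.

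**Figure D3:**
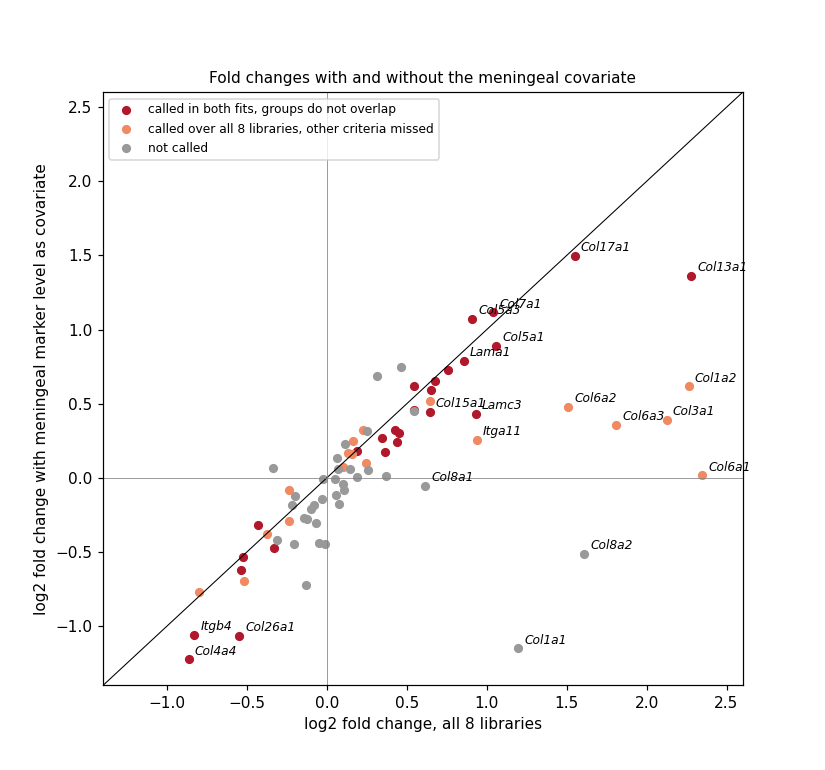
Log2 fold change of each of the same 78 members over all 8 libraries (horizontal axis) against the log2 fold change with the meningeal marker level as a covariate (vertical axis), with the line of equality. Col5a1 (1.06 and 0.89), Lama1 (0.86 and 0.79) and Col7a1 (1.04 and 1.12) lie near the line, whereas Col6a1 (2.35 and 0.016) and Col3a1 (2.13 and 0.39) lie far below it.

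Type VIII collagen, a network-forming collagen, differed between libraries in another order. Col8a2 measured 0.0697, 0.118, 0.268 and 4.58 CPM in the intact and 12.1, 1.02, 1.97 and 0.175 CPM in the deleted libraries. Col8a1 measured 0.511, 0.306, 0.487 and 1.47 CPM in the intact and 2.94, 0.499, 0.407 and 0.374 CPM in the deleted libraries. For both genes deleted replicate 1 was the highest library and intact replicate 4 the highest of its group, the groups overlapped, and neither was called (adjusted p = 0.411 and 0.554). When intact replicate 4 and deleted replicate 1 were both left out, Col8a2 was called higher (2.81, adjusted p = 0.0333) and Col8a1 was not (-0.0090, adjusted p = 0.982). The groups still overlapped for Col8a2 there, as deleted replicate 4 (0.175 CPM) lay below intact replicate 3 (0.268 CPM). In those libraries Col8a2 had 3, 5 and 11 counts in intact replicates 1 to 3 and 45, 87 and 7 in deleted replicates 2 to 4. Markers of choroid plexus, the secretory epithelium of the ventricles, summed to 15.6, 18.8, 21.3 and 314 CPM in the intact and 962, 71.0, 163 and 15.4 CPM in the deleted libraries, and 0 of their 8 genes were called by edgeR (smallest unadjusted p = 0.0555, for Otx2). With the mean log2 level of these markers as a covariate, the log2 fold change was 0.0029 for Col8a2 (adjusted p = 0.991) and -0.37 for Col8a1 (adjusted p = 0.452). The part of choroid plexus tissue in the type VIII values was not tested. In 9 members (11.4%) intact replicate 4 and deleted replicate 1 were the highest of their groups, beside 6.17% of all genes: Col8a1, Col8a2, Col9a3, Col14a1, Col23a1, Col27a1, Itga4, Itga8 and Itgb5. In that fit without intact replicate 4 and deleted replicate 1, added after seeing the data, 28 members were called higher and 8 lower, and 28.1% and 28.7% of all genes.

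Of the other fibrillar collagen genes, only Col5a1, Col2a1 and Col5a3 were higher in every deleted library than in any intact one. Col5a1, whose type V trimers seed and limit the width of collagen fibrils, measured 25.3, 26.6, 22.1 and 25.7 CPM in the intact and 54.3, 53.8, 55.9 and 43.7 CPM in the deleted libraries. The groups did not overlap, the log2 fold change was 1.06 ± 0.082 and the adjusted p was 9.39e-07. The lowest deleted library was replicate 4, at 43.7 CPM. Its usual partner Col5a2 had 29.1 to 31.9 CPM in the intact and 24.1 to 36.6 CPM in the deleted libraries and was not called (-0.069 ± 0.12, adjusted p = 0.642). Col5a2 was called lower without deleted replicates 2 and 3 (-0.32, adjusted p = 0.00125) and with the meningeal covariate (-0.31, adjusted p = 0.0476). Per length, the ratio of Col5a1 to Col5a2 was 0.545 to 0.685 in the intact and 1.16 to 1.69 in the deleted libraries.

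Col2a1, the type II chain known best from cartilage and also expressed by early neuroepithelium, was the most abundant fibrillar member. It measured 152, 154, 127 and 142 CPM in the intact and 235, 219, 241 and 209.9 CPM in the deleted libraries. All deleted libraries were above all intact ones, with a log2 fold change of 0.65 ± 0.064 and an adjusted p of 5.24e-06. Col5a3, a minor type V chain, rose from a range of 0.372 to 0.542 CPM to one of 0.768 to 1.10 CPM (0.91 ± 0.21, adjusted p = 0.00212). The type XI chains, which join type II in cartilage fibrils, went the other way. Col11a1 fell by 0.38 ± 0.10 (adjusted p = 0.0113), from a range of 41.5 to 54.7 CPM to one of 34.7 to 43.7 CPM. Col11a2 fell by 0.24 ± 0.094 (adjusted p = 0.0441), from a range of 12.1 to 14.5 CPM to one of 9.08 to 12.5 CPM. Both overlapped between the groups, and neither was called without deleted replicates 2 and 3, where the log2 fold change was -0.31 for Col11a1 (adjusted p = 0.109) and -0.11 for Col11a2 (adjusted p = 0.316). Of the cartilage and bone markers 4 of 8 could be tested, and 2 of these, Alpl (-0.51) and Acan (-0.95), were lower. Among all genes tested, 32.9% were lower. The other markers tested, Runx2 and Cnmd, were not called. Runx2 went the other way, with 13 to 24 counts in the intact and 17 to 42 in the deleted libraries. Matn1 had 1 count in deleted replicate 2 and 0 elsewhere. Col24a1 and Col27a1 were not called, at 0.15 ± 0.30 and 0.10 ± 0.10.

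Transmembrane collagens, which are anchored in the cell membrane rather than secreted as fibres, included low genes that were higher in every deleted library. Col13a1 measured 0.163, 0.0707, 0.170 and 0.0949 CPM in the intact and 0.570, 0.658, 0.971 and 0.249 CPM in the deleted libraries, near the floor of 3 counts in the intact libraries. It passed the filter on low counts only through the deleted group, so its fitted log2 fold change of 2.28 ± 0.43 is given as a description. The lowest deleted library, replicate 4, stood at 0.249 CPM. Col17a1, a component of hemidesmosomes in epithelia, measured 0.349, 0.189, 0.195 and 0.308 CPM in the intact and 0.832, 0.749, 0.746 and 0.748 CPM in the deleted libraries and rose by 1.55 ± 0.24 (adjusted p = 1.12e-04). The groups did not overlap for either gene, and both were low, so that their fold changes rest on few counts. Col25a1, which neurons express, fell by 0.43 ± 0.10 (adjusted p = 0.00243), from 7.69, 9.43, 9.71 and 8.09 CPM in the intact to 7.12, 6.24, 5.67 and 6.86 CPM in the deleted libraries, again without overlap. Col23a1 was not called (-0.048 ± 0.17).

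Col7a1, which forms the anchoring fibrils under stratified epithelia, measured 3.07, 2.95, 2.53 and 2.87 CPM in the intact and 6.33, 5.11, 5.87 and 6.21 CPM in the deleted libraries. It rose by 1.04 ± 0.11 (adjusted p = 3.48e-06), and the groups did not overlap. A microRNA gene, Mir711, lies within its exons on the same strand. The 5 skin epithelial markers summed to 1.05 to 1.53 CPM in the intact and 1.07 to 1.82 CPM in the deleted libraries. Krt5 and Krt14 had at most 2 counts in any library, Krt15 at most 5, Trp63 had 4 to 14 and Epcam 34 to 70. Epcam, the 1 marker that could be tested, was not called (0.011 ± 0.23). Their part in the Col7a1 and Col17a1 values was not tested.

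Among the FACIT collagens, which attach to the surface of fibrils, Col20a1 rose by 0.68 ± 0.15 (adjusted p = 0.00164), from 1.93, 1.77, 1.65 and 1.71 CPM in the intact to 3.55, 2.81, 2.35 and 2.57 CPM in the deleted libraries. It was the 1 consistent change of 9 FACIT members. Col9a1 measured 1.05, 0.731, 1.44 and 0.877 CPM in the intact and 0.657, 0.363, 0.768 and 0.549 CPM in the deleted libraries and was called lower (-0.80 ± 0.27, adjusted p = 0.0201), with overlap. Col12a1 fell by 0.24 ± 0.081 (adjusted p = 0.0213) and Col22a1 rose by 0.22 ± 0.083 (adjusted p = 0.0347), both with overlapping groups. None of Col9a1, Col12a1 and Col22a1 was called without deleted replicates 2 and 3 (adjusted p = 0.0620, 0.135 and 0.0997), where their log2 fold changes were close to those over all 8 libraries, at -0.76, -0.21 and 0.23. The 5 others, Col9a2, Col9a3, Col14a1, Col16a1 and Col19a1, were not called, with log2 fold changes from -0.20 to 0.11.

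The multiplexins, basement membrane collagens whose ends release endostatin-like fragments, were Col15a1 and Col18a1. Col15a1 measured 6.09, 7.33, 5.28 and 6.81 CPM in the intact and 10.4, 9.28, 12.02 and 8.10 CPM in the deleted libraries and rose by 0.64 ± 0.13 (adjusted p = 0.00107) without overlap. Col18a1 had 50.8 to 68.0 CPM in the intact and 61.9 to 83.6 CPM in the deleted libraries and was not called (0.26 ± 0.12, adjusted p = 0.0876). Of the 2 remaining collagens, Col26a1 fell by 0.55 ± 0.20 (adjusted p = 0.0412). It measured 12.6, 12.1, 12.5 and 13.7 CPM in the intact and 7.25, 10.8, 11.2 and 5.56 CPM in the deleted libraries, and the 4 deleted libraries were all below the intact ones, least so replicates 2 and 3. The call of Col26a1 was lost in 10 of 21 alternative settings, among them the omission of each intact library in turn and of deleted replicate 1. The fall was larger without deleted replicates 2 and 3 (-0.99, adjusted p = 8.42e-05). With the meningeal covariate the log2 fold change of Col26a1 was -1.06 (adjusted p = 2.40e-05). Col28a1 was not called (-0.10 ± 0.18).

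Type IV collagen genes, the scaffold of basement membranes, divided into 3 higher, 2 lower and 1 not called. Col4a1 and Col4a2, the chains of the ubiquitous network, were abundant, at 30.6 ± 2.02 and 20.4 ± 1.496 CPM per kilobase of gene length in the intact cortex (mean ± SD, n = 4). Col4a1 measured 204, 205, 184 and 216 CPM in the intact and 259, 289.7, 313 and 233 CPM in the deleted libraries and rose by 0.44 ± 0.089 (adjusted p = 0.00198). Col4a2 measured 134, 133, 117 and 139 CPM in the intact and 165, 174, 192 and 142 CPM in the deleted libraries and rose by 0.36 ± 0.088 (adjusted p = 0.00517). In both genes every deleted library was above every intact one, deleted replicate 4 by the narrowest margin, and deleted replicates 2 and 3 were highest. Without those libraries the log2 fold changes were 0.28 (adjusted p = 0.00614) and 0.23 (adjusted p = 0.0365), and with the covariate 0.24 and 0.17. The genes lie head to head, with RefSeq starts 21 bases apart, and their annotated exons overlap on opposite strands.

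Col4a5 and Col4a6, another head-to-head pair on chromosome X with starts 1343 bases apart, moved in opposite directions. Col4a5 measured 30.3, 31.6, 28.0 and 31.0 CPM in the intact and 42.9, 43.9, 48.6 and 40.8 CPM in the deleted libraries and rose by 0.54 ± 0.058 (adjusted p = 5.42e-06). Col4a6 measured 7.95, 7.85, 8.05 and 8.75 CPM in the intact and 6.07, 6.22, 7.79 and 5.81 CPM in the deleted libraries and fell by 0.33 ± 0.10 (adjusted p = 0.00978). Neither overlapped between the groups, although Col4a6 in deleted replicate 3 nearly reached the lowest intact library. Per length, the ratio of Col4a5 to Col4a6 was 3.55 to 4.12 in the intact and 6.38 to 7.22 in the deleted libraries. The call of Col4a6 was lost without intact replicate 4 and deleted replicate 1 (-0.25, adjusted p = 0.0870). In the third pair, Col4a4 measured 1.79, 1.58, 2.00 and 1.97 CPM in the intact and 1.20, 1.09, 1.04 and 0.673 CPM in the deleted libraries and fell by 0.86 ± 0.19 (adjusted p = 0.00144), while Col4a3 was not called (0.55 ± 0.29, adjusted p = 0.121).

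Laminin genes changed for 1 chain of each class in all deleted embryos. Lama1, the alpha 1 chain of pial and early epithelial basement membranes, had the smallest p-value of all members. It measured 30.2, 30.1, 28.9 and 26.9 CPM in the intact and 52.1, 55.5, 54.3 and 48.4 CPM in the deleted libraries, with no overlap, a log2 fold change of 0.86 ± 0.053 and an adjusted p of 5.85e-08. Without deleted replicates 2 and 3 and with the meningeal covariate the log2 fold change of Lama1 was 0.79 in both cases. Lama4, the alpha 4 chain of vessel walls, rose by 0.25 ± 0.080 (adjusted p = 0.0180), with 23.9, 27.4, 25.2 and 25.3 CPM in the intact and 27.8, 32.2, 34.3 and 26.5 CPM in the deleted libraries, which overlapped. It was not called without deleted replicates 2 and 3 (0.090, adjusted p = 0.266). Lama2, Lama3 and Lama5 were not called, with log2 fold changes from -0.023 to 0.37.

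Lamb2, a beta chain of the pial and vascular basement membranes, measured 61.3, 62.4, 53.1 and 57.8 CPM in the intact and 78.1, 83.4, 82.7 and 71.0 CPM in the deleted libraries and rose by 0.43 ± 0.061 (adjusted p = 8.33e-05). Lamb1, the beta chain of early laminins, had 48.0 to 53.0 CPM in the intact and 42.8 to 53.6 CPM in the deleted libraries and was not called (-0.078 ± 0.064, adjusted p = 0.308). Per length the ratio of Lamb2 to Lamb1 was 1.12 to 1.31 in the intact and 1.58 to 1.90 in the deleted libraries, with no overlap. Lamb3 was not called (0.077 ± 0.25).

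Lamc1, the gamma chain of most laminins, had 12.7 ± 0.595 CPM per kilobase in the intact cortex, the highest mean of the laminin genes there, and 13.1 ± 1.00 in the deleted cortex, where Lamb2 had 14.0 ± 1.01 (mean ± SD, n = 4). Lamc1 was not called (0.053 ± 0.054, adjusted p = 0.405). The ratio of Lama1 to Lamc1 per length was therefore 0.234 to 0.255 in the intact and 0.392 to 0.460 in the deleted libraries. Lamc3 measured 5.07, 3.94, 5.28 and 5.64 CPM in the intact and 9.03, 9.87, 13.0 and 6.06 CPM in the deleted libraries and rose by 0.93 ± 0.22 (adjusted p = 0.00421). Deleted replicate 4 stood just above the highest intact library, and without deleted replicates 2 and 3 the log2 fold change of Lamc3 was 0.60 (adjusted p = 0.0205). Chain pairs for these ratios were picked after their values were seen, and the ratios were not tested.

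**Figure D4:**
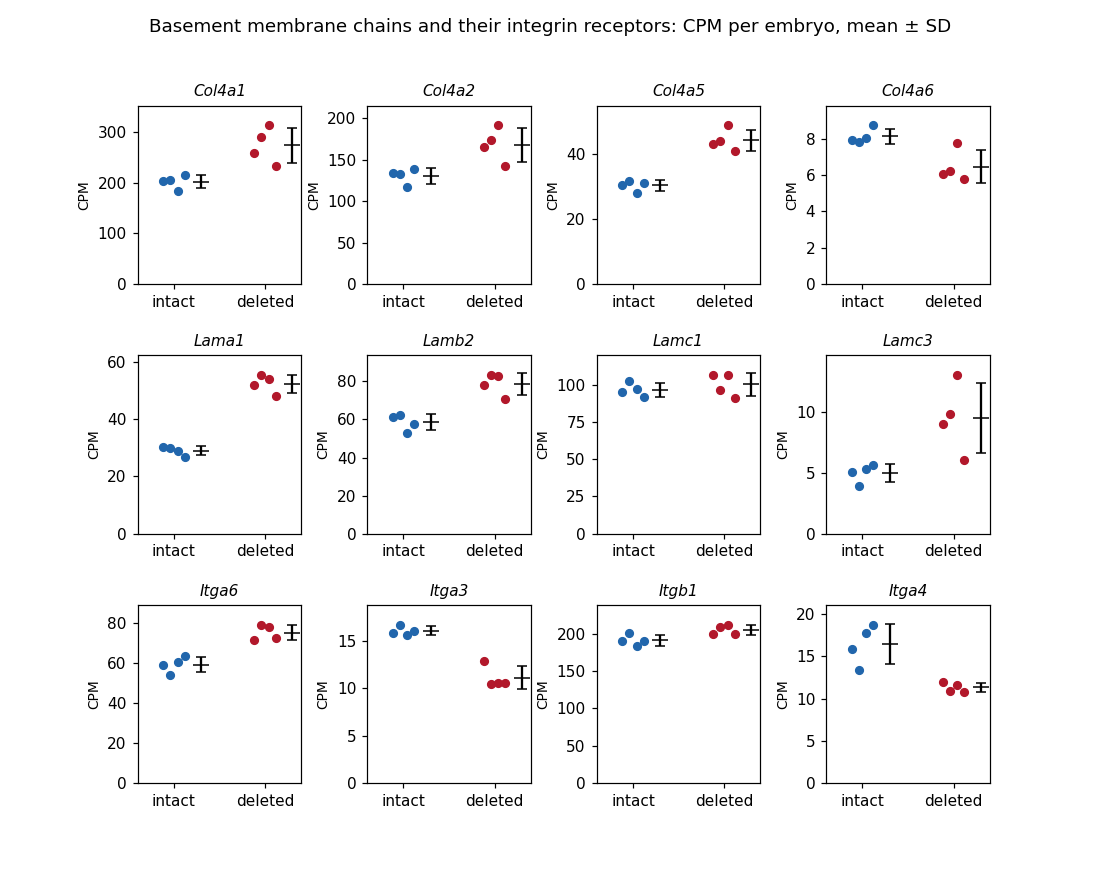
CPM in each embryo for 4 type IV collagen genes, 4 laminin genes and 4 integrin subunit genes, with the mean and SD of each group beside the points and each vertical axis starting at 0. Lama1 (26.9 to 30.2 in the intact, 48.4 to 55.5 in the deleted libraries) and Itga3 (15.6 to 16.7 and 10.5 to 12.9) do not overlap between the groups, whereas Lamc1 does (91.9 to 103 and 91.1 to 107).

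Vascular and glial marker genes also differed beside the basement membrane genes. The counts of called markers below stand beside 30.6% higher and 32.9% lower among all genes tested. Endothelial markers summed to 189.7 to 200.0 CPM in the intact and 216 to 269 CPM in the deleted libraries, with 9 of 11 genes higher and 0 lower. Pericyte markers summed to 196 to 216 and 232 to 264 CPM, with 8 of 9 higher and 0 lower. Radial glial markers summed to 2026 to 2300.0 and 2858 to 3058 CPM, with 5 of 8 higher, such as Nes (0.85), and 2 lower, Fabp7 (-0.51) and Slc1a3 (-0.33). Neuronal markers summed to 5315 to 5843 and 4125 to 4396 CPM, with 8 of 9 lower. Blood markers were higher for 4 of 9 genes and lower for 0, and microglial and macrophage markers were higher for 5 of 10, such as Csf1r (0.33), and lower for 1, Cx3cr1 (-0.30). The 5 include Pf4, which passed the filter only through the deleted group, with 2 to 6 counts in the intact and 12 to 26 in the deleted libraries. Without deleted replicates 2 and 3, 7 endothelial, 4 pericyte, 4 radial glial, 0 blood and 3 microglial and macrophage markers were called higher. In that fit 8 neuronal, 2 radial glial and 1 microglial and macrophage marker were called lower. Among all genes, 25.8% and 28.5% were called there. The part of these markers in the laminin, type IV collagen and integrin values was not tested.

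Integrin subunit genes shifted in opposite directions within the laminin receptors. Itga6, whose subunit pairs with beta 1 or beta 4 on radial glia and epithelia, measured 58.9, 53.9, 60.4 and 63.2 CPM in the intact and 71.2, 78.9, 77.6 and 72.3 CPM in the deleted libraries and rose by 0.34 ± 0.051 (adjusted p = 8.40e-05). Itga3, the other main laminin-binding subunit of the cortex, measured 15.8, 16.7, 15.6 and 16.1 CPM in the intact and 12.9, 10.5, 10.6 and 10.6 CPM in the deleted libraries and fell by 0.53 ± 0.073 (adjusted p = 5.15e-05). Neither overlapped between the groups. Per length, the ratio of Itga6 to Itga3 was 3.72 to 4.53 in the intact and 6.36 to 8.67 in the deleted libraries. Itga7, the laminin-binding subunit best known from muscle, was not called (-0.31 ± 0.19).

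Of the collagen-binding subunits, Itga10 rose in all deleted libraries, from 4.65, 4.29, 4.53 and 4.51 CPM to 7.45, 5.65, 6.24 and 6.83 CPM (0.54 ± 0.10, adjusted p = 3.97e-04). Itga11, a fibroblast receptor for fibrillar collagen, measured 1.26, 1.30, 1.44 and 1.14 CPM in the intact and 1.60, 2.75, 4.11 and 1.35 CPM in the deleted libraries and was called higher (0.94 ± 0.32, adjusted p = 0.0256). Its deleted replicates 2 and 3 were highest and replicate 4 lay within the intact range, and without replicates 2 and 3 its log2 fold change was 0.20 (adjusted p = 0.393). Itga1 rose by 0.15 ± 0.063 (adjusted p = 0.0479) with 10.9 to 12.7 CPM in the intact and 12.8 to 13.6 CPM in the deleted libraries, which did not overlap, and was not called without replicates 2 and 3, at a similar log2 fold change (0.16, adjusted p = 0.122). Itga2 was not called (-0.22 ± 0.12).

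Itga4, the subunit for fibronectin and VCAM-1 on migrating and blood-derived cells, measured 15.8, 13.4, 17.7 and 18.7 CPM in the intact and 11.9, 10.9, 11.7 and 10.7 CPM in the deleted libraries and fell by 0.54 ± 0.094 (adjusted p = 3.46e-04) without overlap. Its exons overlap those of Cerkl on the other strand. Itga9, its closest relative, was not called (-0.13 ± 0.10). Among the subunits that recognise the RGD tripeptide, Itga2b, the platelet subunit, measured 2.07, 2.10, 1.87 and 2.06 CPM in the intact and 3.57, 2.84, 2.44 and 2.22 CPM in the deleted libraries and rose by 0.45 ± 0.15 (adjusted p = 0.0228). It was not called without deleted replicate 1, with the meningeal or the choroid plexus covariate, or without intact replicate 4 and deleted replicate 1 (adjusted p = 0.0938). Itgav rose by 0.16 ± 0.060 (adjusted p = 0.0314), with 30.1 to 35.7 CPM in the intact and 35.2 to 39.0 CPM in the deleted libraries, and was not called without deleted replicates 2 and 3, at a log2 fold change no smaller (0.19, adjusted p = 0.0657). Itga5 and Itga8 were not called, at 0.054 ± 0.078 and -0.21 ± 0.19.

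The abundant beta subunit genes had small fold changes. Itgb1, the common partner of most alpha subunits, was the most abundant member per length, at 45.6 ± 1.70 CPM per kilobase in the intact and 49.0 ± 1.52 in the deleted cortex (mean ± SD, n = 4). It measured 189.7, 201, 184 and 191 CPM in the intact and 200.1, 209, 212 and 199.6 CPM in the deleted libraries, overlapping, and was called at a log2 fold change of 0.10 ± 0.037 (adjusted p = 0.0283). Itgb8, the radial glial partner of alpha v that releases active TGF-beta, rose by 0.13 ± 0.045 (adjusted p = 0.0237), from 38.4, 39.6, 35.3 and 36.0 CPM to 40.2, 41.4, 39.6 and 42.1 CPM. Neither was called without deleted replicates 2 and 3, where the log2 fold change was 0.062 for Itgb1 (adjusted p = 0.268) and 0.14 for Itgb8 (adjusted p = 0.0701). Itgb4, which pairs with alpha 6 in hemidesmosomes, measured 1.42, 1.34, 1.29 and 1.59 CPM in the intact and 0.745, 0.998, 0.746 and 0.673 CPM in the deleted libraries and fell by 0.83 ± 0.17 (adjusted p = 0.00118) without overlap. Itgb2, Itgb3 and Itgb5 were not called, with log2 fold changes from -0.13 to 0.19.

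The leukocyte subunit genes were low. Itgal, the alpha chain of LFA-1, measured 0.744, 0.660, 0.876 and 0.664 CPM in the intact and 0.701, 1.25, 1.56 and 1.10 CPM in the deleted libraries and was called higher (0.64 ± 0.24, adjusted p = 0.0321), with deleted replicate 1 inside the intact range. It was not called without deleted replicates 2 and 3 (0.28, adjusted p = 0.389). Itgae missed the threshold with all 8 libraries (0.47 ± 0.20, adjusted p = 0.0586), and Itgam was not called (0.063 ± 0.16).

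The 4 genes that share the prefix without encoding a subunit differed among themselves. Itgb3bp, which encodes the centromere protein CENP-R and also binds nuclear receptors, measured 6.88, 5.73, 6.81 and 6.71 CPM in the intact and 11.0, 12.7, 9.60 and 10.9 CPM in the deleted libraries and rose by 0.76 ± 0.094 (adjusted p = 1.99e-05). Itgb1bp1, whose product ICAP-1 binds the beta 1 tail and restrains integrin activation, rose by 0.19 ± 0.044 (adjusted p = 0.00239), from 18.5, 19.4, 18.7 and 18.9 CPM to 21.4, 21.6, 21.7 and 21.3 CPM. Neither overlapped between the groups, and both share exonic sequence with genes on the other strand, Pgm1 for Itgb3bp and Asap2 and Cpsf3 for Itgb1bp1. Itgbl1, a secreted protein with integrin-like repeats, fell by 0.52 ± 0.20 (adjusted p = 0.0402) with overlap, at 1.32 to 2.07 CPM in the intact and 0.942 to 1.45 CPM in the deleted libraries. Itgb1bp2, known as melusin in muscle, was not called (-0.34 ± 0.21).

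Ordered by level per length in the intact cortex, the most abundant members were Itgb1 (45.6 ± 1.70 CPM per kilobase, mean ± SD, n = 4), Col4a1 (30.6 ± 2.02), Col2a1 (28.0 ± 2.43), Col4a2 (20.4 ± 1.496), Itga6 (14.1 ± 0.922), Lamc1 (12.7 ± 0.595) and Itgb8 (12.05 ± 0.653). Col4a1 and Col2a1 were within the sum of their SDs of each other, as were Itga6 and Lamc1, and Lamc1 and Itgb8. In the deleted cortex Col2a1 reached 44.1 ± 2.79 and Col4a1 41.4 ± 5.32 CPM per kilobase. All 79 members together made up 0.147% to 0.164% of the counts in the intact and 0.178% to 0.227% in the deleted libraries.

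Genes that work with these proteins were read from 4 lists. Among all genes tested, 30.6% were higher and 32.9% lower. The shares were 31.8% and 22.7% for collagen processing and 30% and 20% for other basement membrane and matrix genes. They were 16.7% and 58.3% for non-integrin receptors and 38.1% and 38.1% for the adhesion machinery. Of 22 genes for collagen processing and crosslinking, 7 were higher and 5 lower, with a median log2 fold change of 0.042. Plod2, a lysyl hydroxylase of collagen ends, rose by 1.11 ± 0.077 (adjusted p = 2.76e-07), and the prolyl hydroxylase subunits P4hb (0.36 ± 0.034) and P4ha1 (0.44 ± 0.065) rose as well. Ppib, a prolyl isomerase that helps collagen fold, fell by 0.47 ± 0.032 (adjusted p = 1.38e-07), and Loxl1, a crosslinking oxidase, fell by 1.34 ± 0.24. The collagen chaperone Serpinh1 was not called (-0.12 ± 0.11).

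Of 20 other basement membrane and matrix genes, 6 were higher and 4 lower, with a median of 0.13. Fn1, which encodes fibronectin, rose by 0.46 ± 0.051 (adjusted p = 7.01e-06), and Nid1, which links laminin to type IV collagen, by 0.50 ± 0.062 (adjusted p = 2.48e-05). Tnr and Tnc, the tenascins of brain matrix, fell by 1.07 ± 0.14 and 0.89 ± 0.11 (adjusted p = 7.28e-05 and 1.40e-04). Hspg2, the basement membrane proteoglycan perlecan, and Agrn were not called, at -0.11 ± 0.11 and -0.077 ± 0.036.

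Of 12 genes listed as non-integrin receptors for matrix, 2 were higher and 7 lower, with a median of -0.22. The list and the 7 include Lgi1, whose product is secreted and is not a receptor. Adgrg1, the receptor GPR56 that binds type III collagen at the pial surface, fell by 0.51 ± 0.042 (adjusted p = 5.84e-07), from 504, 514, 463 and 492 CPM in the intact to 326, 339, 359.7 and 357 CPM in the deleted libraries. Ddr1, a collagen receptor kinase, fell by 0.43 ± 0.044 (adjusted p = 3.36e-06), and Lgi1, a secreted neuronal protein also on the list, by 0.96 ± 0.10. Sdc4, a syndecan that acts with integrins, rose by 1.11 ± 0.12 (adjusted p = 5.78e-06). Dag1, which encodes the laminin receptor dystroglycan, fell by 0.20 ± 0.033 (adjusted p = 1.94e-04).

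Of 22 genes of the adhesion machinery inside the cell, 21 could be tested, of which 8 were higher and 8 lower, with a median of 0.053. Src and Pxn, a kinase and a scaffold of focal adhesions, fell by 0.45 ± 0.035 and 0.44 ± 0.044 (adjusted p = 3.22e-07 and 3.00e-06). Crk and Tln2, an adaptor and a talin that activates integrins, rose by 0.26 ± 0.031 and 0.30 ± 0.037 (adjusted p = 1.42e-05 and 2.08e-05). Ptk2, which encodes focal adhesion kinase, fell by 0.18 ± 0.033, and Ilk, integrin-linked kinase, was not called (0.067 ± 0.032).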

How the data were processed

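The deposited values are raw whole-number counts per gene, 1 column per embryo, with a deposited gene length in bases. Per the submitters' processing notes, bcl2fastq 1.8.4, Subread 1.5.0 and featureCounts were used with build mm10; neither the counting annotation nor the handling of multi-mapping reads is given in the sources used here. Entrez identifiers were matched to RefSeq GRCm38.p6 symbols for 25275 of 27179 genes. Counts were filtered with filterByExpr, scaled by TMM and tested in R 4.3.3 with edgeR 4.0.16 (robust quasi-likelihood test, Benjamini-Hochberg adjustment, threshold 0.05) on all 8 libraries; limma 3.58.1 and DESeq2 1.42.0 served as alternatives. The script was tested on simulated data. Marker levels were mean log2 CPM with a prior count of 2. Exon overlaps came from GENCODE M21. The members, their grouping by role, the marker and pathway lists and the set of deleted replicates 2 and 3 were chosen with earlier results of these data known. All members may be named; values per library are given for up to 4 members of each role with the smallest p, for members whose call changed without deleted replicates 2 and 3 and for called members in the meningeal order. Of each marker or pathway list, up to 4 genes with the smallest p, genes moving the opposite way and a few others, chosen after their values were seen, are named. The values of 1 member are not reported here, and it enters only the counts.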

Additional observations from a re-analysis of the deposited data

Results flagged for a closer look

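In 14 of 158 group and gene combinations of 4 libraries each, 1 library stood far from the other 3 in Dixon's test, which chance alone does in about 1 in 20 groups. In the deleted group the high values were deleted replicate 1 for Col11a1 (43.7 CPM), Col17a1 (0.832 CPM), Col8a1 (2.94 CPM), Col8a2 (12.1 CPM) and Itga3 (12.9 CPM), and deleted replicate 2 for Lamb3 (1.16 CPM). The low values there were Col5a1 in deleted replicate 4 (43.7 CPM) and Itga2 in deleted replicate 1 (2.26 CPM). In the intact group replicate 4 was high for Col1a2 (7.02 CPM), Col3a1 (12.2 CPM) and Col8a2 (4.58 CPM). The low values there were Col18a1 (50.8 CPM) and Itga2b (1.87 CPM) in intact replicate 3 and Itgb3bp (5.73 CPM) in intact replicate 2. Itga3 and Itgb3bp were called in each of 21 alternative fits.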

How the results depend on the processing

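Of 44 called members, 22 (18 higher, 4 lower) were called in each alternative in which they were tested. The 18 include Col13a1, which passed the filter on low counts only through the deleted group. In 0 of 1645 comparisons of a member with an alternative was a call reversed. Those comparisons include the 35 members not called over all 8 libraries, which had no call to reverse. In 71 comparisons, over 20 members, the sign changed but the member was called in neither fit. The count of 32 higher members was 20 without deleted replicates 2 and 3 and ranged from 21 (without intact replicate 1) to 32 when single libraries were left out; the count of 12 lower members ranged from 8 to 11. For all genes those ranges were 4617 to 5024 higher and 4876 to 5103 lower. Consistent lower members numbered 4 rather than 7 with library totals as scaling, and consistent higher members 24 rather than 19; the cause was not tested. Library totals gave 5894 higher and 4416 lower genes overall and upper quartile factors 5837 and 4480, against 4919 and 5290; for the members they gave 34 and 8, and 35 and 8. No label says that the replicate numbers pair embryos. Deviations of same-numbered libraries from their group means correlated at -0.229, 0.00519, -0.000469 and -0.455 across genes. For intact replicate 4 and deleted replicate 1 the correlation was 0.36. These values cannot decide whether pairs exist, since deviations from a group's own mean over 4 libraries depend on each other. With the replicate number as a block, 24 members were higher and 10 lower. DESeq2 gave 33 and 11 and limma voom 25 and 12. Choroid plexus markers as a covariate, added after seeing the data, gave 25 and 11. Depth limits Col13a1, Col17a1 and Col8a2, with at least 10 counts in 0, 2 and 2 of 4 intact libraries. For Col8a2 this held in 3 of 4 deleted libraries.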
